A study of Arabidopsis thaliana with 9 samples.

Results

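The comparison set both lines of Arabidopsis thaliana with altered IAA26 against their common wild type, 6 libraries of 9 in all against the 3 others. The stabilised group held 3 leaf libraries of plants labelled as an IAA26 stable line, the knockout-labelled group 3 leaf libraries of plants labelled as an IAA26 knockout line, and the wild type 3 leaf libraries without an IAA26 change. All plants were 9 weeks old and of the natural accession Shahdara. The labels call the 3 libraries of a group biological replicates, and p-values here measure the spread between such libraries. The lesion of the knockout-labelled line, the construct or allele of the stabilised line, the number of independent lines behind each label and the time of day at harvest are not stated in the labels. Each line was given equal weight: a fold change of both lines together is the mean of the log2 fold changes of the lines, taken from counts of total exon reads. Levels are RPKM, reads per kilobase of exon scaled to library size, as deposited by the authors. Each adjusted p comes from the quasi-likelihood test of edgeR, adjusted by Benjamini-Hochberg over all 19409 genes tested. A gene was called at an adjusted p under 0.05. Because both lines were set against the same 3 wild-type libraries, a gene that happens to stand high or low in those libraries shifts both lines alike. RNA was taken from whole leaves, in which fewer cells of a type and less RNA per cell cannot be told apart.

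IAA26 belongs to the Aux/IAA proteins, which hold auxin response factors inactive until auxin brings about their destruction, so that a stable form keeps repressing and a missing one cannot. Leaf transcripts also follow the circadian clock, a loop in which the dawn factors CCA1 and LHY repress genes of the day and evening, and pseudo-response regulators and the evening complex repress the dawn genes in return. Cold acclimation genes, starch enzymes and iron uptake regulators are among the many outputs whose level changes with time of day, with temperature and with nutrient state.

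IAA26 (AT3G16500; chromosome 3, 5612203 to 5614803 in TAIR10) stood at 12.7, 9.81 and 10.3 RPKM in stabilised libraries and 16.7, 17.2 and 12.4 RPKM in knockout-labelled libraries, against 17.5, 18.5 and 20.3 RPKM in wild-type libraries. Exon reads behind these values numbered 698 to 849, 978 to 1387 and 1337 to 1841 per library of the stabilised, knockout-labelled and wild-type groups. All 6 values of the lines lay below the lowest wild-type value, and the transcript fell in both lines together (log2 -0.55, SE 0.10, adjusted p = 0.0199). The call was lost without wild type 1 (log2 -0.59, adjusted p = 0.0517) and without wild type 3 (log2 -0.49, adjusted p = 0.0843). A lesion need not lower a transcript, so this level does not check the knockout label, which is used here as given.

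Exon reads summed to 28585976 to 36684424 in the 6 libraries of the lines and 34325905 to 45346301 in the wild type. Floral organ transcripts (AP3, PI) marked out knockout-labelled 3, in which the 7 flower markers summed to 31.7 RPKM, against at most 9.90 RPKM in the other 8 libraries. The 3 libraries numbered 2 held 3.79% to 4.03% of gene reads in introns, against 4.61% to 4.99% in the other 6. The sum of the 4 leaf mesophyll markers was 9841 to 19472 RPKM in the lines and 13485 to 14719 RPKM in the wild type, and all 4 were detected in each library. Stabilised 1 also stood apart within its line: 1596 genes were called in both lines together without it, against 1004 with it. Counts without stabilised 1 and knockout-labelled 3 are therefore given with the main lists. Wild type 1 stood far above wild type 2 and 3 in several named falls, among them NHL10, BHLH100 and PAD3.

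In both lines together 1004 genes were called, 5.17% of those tested, of which 522 (2.69%) were higher and 482 (2.48%) lower than in the wild type. At least 2-fold changes were found for 178 of the higher and 107 of the lower genes. Before adjustment, 4055 genes had a p under 0.05. The values of the 6 and 3 libraries did not overlap for 2134 genes, 11.0% of those tested. A gene was taken to have moved the same way in both lines if it was called in both lines together, had the same sign in each line's own comparison and showed no overlap between the 6 and the 3 values, on TMM-scaled log2 CPM. This held for 891 genes, 4.59% of those tested, 481 of them higher and 410 lower. Of the other 113 called genes, 108 overlapped the wild type in at least 1 library and 5 had opposite signs in the lines.

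The 891 genes stood further from the wild type in the stabilised line than in the knockout-labelled line. The median log2 fold change of the 481 higher genes was 0.91 in the stabilised line, 0.63 in the knockout-labelled line and 0.75 in both together, and that of the 410 lower genes was -0.68, -0.52 and -0.61, beside a median of 0.01 over all genes tested. In its own comparison with the wild type the stabilised line had 1721 called genes (8.87%) and the knockout-labelled line 322 (1.66%). Of the 891 genes, 785 were called in the stabilised line, 247 in the knockout-labelled line and 57 in neither, while 198 were called in each of the lines with the same sign, 145 of them higher and 53 lower. The direct comparison of the lines called 1351 genes (6.96%), among them 166 of the 891. The change was larger in the stabilised line for 125 of the 127 such genes in the higher set and for 33 of the 39 in the lower set.

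The size of the set moved with single libraries. The count of 1004 called genes became 359 and 361 without wild type 1 or 3, 445 and 468 without knockout-labelled 1 or 2, 622 without wild type 2 or stabilised 3, 653 without stabilised 2 and 1596 without stabilised 1. The count of 891 genes became 353 and 352 without wild type 1 or 3, 439 and 449 without knockout-labelled 1 or 2, and 583 without stabilised 3. With stabilised 1 and knockout-labelled 3 left out, 1365 genes were called and 1021 moved the same way, 763 of which were among the 891. With the 3 libraries numbered 2 left out, edgeR called 0 genes at 2 libraries per group, and 2565 reached an unadjusted p under 0.05. A model with 1 mean for both lines, in which differences between the lines count as error, called 260 genes. Calls named below that were lost without 1 library are given with those libraries.

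**Figure D1:**
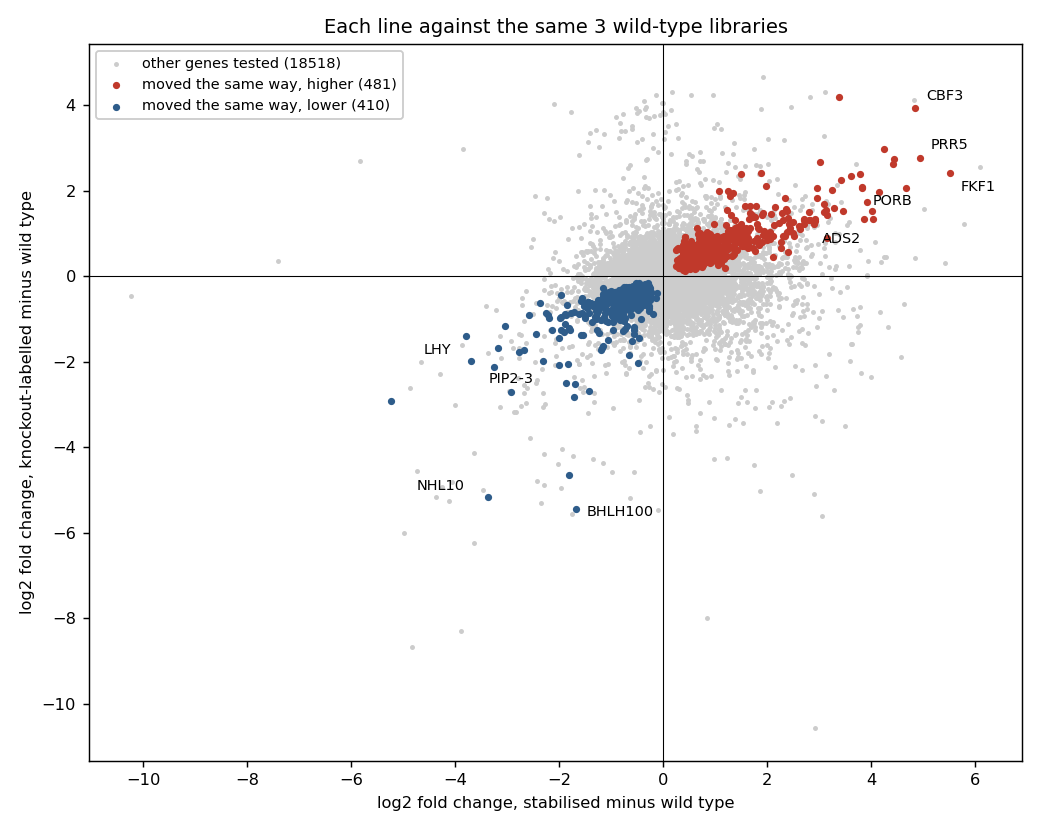
Log2 fold change of 19409 genes in the stabilised line (horizontal axis) and in the knockout-labelled line (vertical axis), each against the same 3 wild-type libraries, with the 481 higher and 410 lower genes that moved the same way in colour. CBF3, PRR5 and FKF1 stand at the upper right, and NHL10 and BHLH100 at the lower left; the shared wild type alone makes points spread along the rising diagonal.

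The upstream sequences of 6 named genes of the clock, cold and iron lists are shown here. Each is the 300 bases before the annotated start in the TAIR10.1 reference of the accession Columbia, not of Shahdara. They run 5′ to 3′ on the strand of the gene, and capitals mark matches on either strand to the evening element AAAATATCT, the CCA1 site AAAAATCT, the G-box CACGTG and the core CCGAC of the CRT/DRE element, which CBF factors bind. The windows are chr1:25508339-25508638 for FKF1 on the plus strand, and chr5:8358547-8358846 for PRR5, chr1:37872-38171 for LHY, chr4:13019401-13019700 for CBF3, chr4:13016236-13016535 for CBF2 and chr2:17199455-17199754 for BHLH100 on the minus strand.
FKF1: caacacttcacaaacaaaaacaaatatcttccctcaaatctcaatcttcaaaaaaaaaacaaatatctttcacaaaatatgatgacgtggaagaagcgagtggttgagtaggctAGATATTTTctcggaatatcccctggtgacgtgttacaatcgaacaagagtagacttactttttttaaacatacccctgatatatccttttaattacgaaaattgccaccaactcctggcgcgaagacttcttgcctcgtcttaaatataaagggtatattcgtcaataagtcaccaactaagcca
PRR5: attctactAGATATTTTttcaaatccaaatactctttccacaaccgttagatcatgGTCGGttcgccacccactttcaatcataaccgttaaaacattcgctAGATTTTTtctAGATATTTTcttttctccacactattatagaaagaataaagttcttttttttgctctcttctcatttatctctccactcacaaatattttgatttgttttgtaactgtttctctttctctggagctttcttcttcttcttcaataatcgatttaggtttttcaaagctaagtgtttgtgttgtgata
LHY: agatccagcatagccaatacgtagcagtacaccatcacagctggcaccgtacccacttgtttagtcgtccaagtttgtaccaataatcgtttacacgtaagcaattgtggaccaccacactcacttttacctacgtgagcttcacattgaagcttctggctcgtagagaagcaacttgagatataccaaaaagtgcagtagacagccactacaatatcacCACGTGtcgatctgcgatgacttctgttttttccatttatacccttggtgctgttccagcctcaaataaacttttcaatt
CBF3: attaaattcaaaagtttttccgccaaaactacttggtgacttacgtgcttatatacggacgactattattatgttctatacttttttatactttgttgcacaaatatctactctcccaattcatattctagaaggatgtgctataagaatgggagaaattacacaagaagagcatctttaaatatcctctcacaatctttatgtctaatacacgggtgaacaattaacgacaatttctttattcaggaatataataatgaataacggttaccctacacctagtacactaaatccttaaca
CBF2: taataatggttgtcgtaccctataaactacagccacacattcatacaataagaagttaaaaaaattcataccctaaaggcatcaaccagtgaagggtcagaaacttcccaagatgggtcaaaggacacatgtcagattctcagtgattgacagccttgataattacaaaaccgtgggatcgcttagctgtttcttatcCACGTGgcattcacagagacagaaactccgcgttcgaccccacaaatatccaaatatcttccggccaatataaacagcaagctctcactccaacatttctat
BHLH100: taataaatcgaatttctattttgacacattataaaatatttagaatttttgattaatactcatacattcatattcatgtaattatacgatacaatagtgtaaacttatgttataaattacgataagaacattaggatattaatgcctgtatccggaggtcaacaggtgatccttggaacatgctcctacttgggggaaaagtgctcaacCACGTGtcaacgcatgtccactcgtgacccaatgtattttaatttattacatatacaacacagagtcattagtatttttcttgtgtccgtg
The FKF1 window holds 1 evening element, 186 to 178 bases before the start, and the PRR5 window holds 2, at 292 to 284 and 187 to 179 bases, each on the opposite strand. The PRR5 window also holds a CCA1 site at 198 to 191 bases and a CRT/DRE core at 244 to 240 bases. In the LHY, CBF2 and BHLH100 windows the capitals mark a G-box, 80 to 75, 102 to 97 and 91 to 86 bases before the start. The CBF3 window holds none of these letters.

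The evening element is the motif that CCA1 and LHY bind in genes of the evening. It was found in the 300 bases upstream of 58 of 479 genes that moved the same way upward (12.1%) and of 6 of 409 that moved the same way downward (1.47%), beside 566 of 19062 genes tested (2.97%) and 765 of all 27437 protein-coding genes (2.79%). The G-box stood in 12.9% of the windows of the higher set and 12.2% of those of the lower set, beside 8.09% of genes tested and 7.09% of all. For the CRT/DRE core these shares were 17.5% and 15.2%, beside 15.0% and 13.9%, and for the CCA1 site 10.2% and 7.58%, beside 8.06% and 7.94%. The W-box core TTGAC, bound by WRKY factors, was in 46.8% of the higher and 53.5% of the lower set, beside 50.2% of genes tested and 50.4% of all. The auxin response element TGTCTC was in 11.9% and 11.0%, beside 12.6% and 13.0%. Matches on both strands were counted with no test, overlaps between motifs were allowed, and a match is a match of letters only.

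The gene lists here and below were chosen with earlier results of these data known, so a share called is a description and no test. Of 14 day and evening genes of the clock 6 rose in both lines together and 0 fell, 42.9% called against 2.69% of all genes called higher, and the median of the list was 0.90, with 1.45 in the stabilised and 0.69 in the knockout-labelled line. FKF1 (AT1G68050, listed as ADO3; chromosome 1, 25508639 to 25510907), a blue-light receptor that acts in photoperiodic flowering, stood at 6.43, 6.50 and 5.43 RPKM in stabilised and 0.677, 0.858 and 0.926 RPKM in knockout-labelled libraries, against 0.163, 0.144 and 0.114 RPKM in the wild type. It rose 15.7-fold in both lines together (log2 3.97, SE 0.20, adjusted p = 0.000104), with log2 fold changes of 5.52 in the stabilised and 2.43 in the knockout-labelled line. The 3 groups did not overlap in this gene, which was lowest in the wild type and highest in the stabilised line. PRR5, listed as APRR5 (AT5G24470; chromosome 5, 8356204 to 8358546), a repressor of the dawn genes, stood at 15.4, 13.8 and 11.7 RPKM in stabilised and 2.74, 3.87 and 3.70 RPKM in knockout-labelled libraries, against 0.421, 0.498 and 0.487 RPKM in the wild type. It rose 14.4-fold (log2 3.84, SE 0.17, adjusted p = 5.62e-05), again with the stabilised libraries highest and no overlap between groups. ELF3 (AT2G25930), a scaffold of the evening complex, stood at 8.92, 7.00 and 7.36 RPKM in stabilised and 6.80, 7.84 and 5.70 RPKM in knockout-labelled libraries, against 2.86, 2.81 and 3.41 RPKM in the wild type. ELF3 gave log2 1.24, SE 0.11, adjusted p = 0.00161 in both lines together. Here the ranges of both lines overlapped, and their direct comparison gave log2 0.39, adjusted p = 0.0807.

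The other called day and evening members were PRR3 (log2 1.80, adjusted p = 0.00207), a relative of PRR5, PRR7 (log2 0.65, adjusted p = 0.0115), another repressor of dawn genes, and ELF4 (log2 1.40, adjusted p = 0.0279), the partner of ELF3. ELF4 ranged over 2.16 to 4.72 RPKM in the lines, against 1.03 to 1.69 RPKM in the wild type, and its call was lost without any 1 of 7 libraries, all but stabilised 1 and knockout-labelled 3 (adjusted p up to 0.109). Of the 8 members not called, TOC1, a core evening repressor, gave 1.00 (adjusted p = 0.074) with 1.76 in the stabilised and 0.24 in the knockout-labelled line. GI, which works with FKF1, gave 0.79 (adjusted p = 0.0685), with 25.2 to 46.6 RPKM in the lines, against 13.5 to 20.8 RPKM in the wild type and no overlap. LUX, the DNA-binding part of the evening complex, gave 1.47 in the stabilised and -0.60 in the knockout-labelled line and differed between the lines (log2 2.07, adjusted p = 0.0238). Without stabilised 1 and knockout-labelled 3, 7 members of the list rose, and with 1 mean for both lines 4 did.

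Of 12 dawn genes of the clock 6 fell in both lines together and 0 rose, 50.0% called against 2.48% of all genes called lower, and the median was -0.76, with 11 of 12 members below 0. Of the 6 called, 4 moved the same way in both lines. LHY (AT1G01060; chromosome 1, 33365 to 37871), a MYB factor that peaks at dawn, stood at 11.0, 6.50 and 7.23 RPKM in stabilised and 35.2, 34.4 and 22.8 RPKM in knockout-labelled libraries, against 139.6, 83.1 and 114 RPKM in the wild type. Its level in both lines together was 7.19-fold lower (log2 -2.85, SE 0.20, adjusted p = 0.000639), and the 3 groups did not overlap, the stabilised line being lowest. LNK2 (AT3G54500), a coactivator of dawn-phased MYB factors, stood at 116, 85.9 and 103 RPKM in stabilised and 232, 199.9 and 189 RPKM in knockout-labelled libraries, against 314, 261 and 302 RPKM in the wild type. LNK2 gave log2 -1.03, SE 0.11, adjusted p = 0.00285 in both lines together. Its relative LNK4 (AT5G06980) had 54.2 to 88.7 RPKM in the lines, against 90.1 to 101 RPKM in the wild type, a small fall (log2 -0.46, SE 0.07, adjusted p = 0.00934). RVE8, the MYB factor that the LNK proteins serve, fell as well (log2 -1.26, adjusted p = 0.0116), without overlap.

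CCA1, the partner of LHY, and LNK3 were also called lower (log2 -0.99, adjusted p = 0.041, and log2 -0.73, adjusted p = 0.0102), but both overlapped the wild type and therefore do not count among genes moved the same way. CCA1 stood at 87.4, 44.9 and 51.7 RPKM in stabilised and 193, 187 and 132 RPKM in knockout-labelled libraries, against 246, 144 and 207 RPKM in the wild type. Its log2 fold changes were -1.64 in the stabilised and -0.34 in the knockout-labelled line, which differed between the lines (log2 -1.30, adjusted p = 0.0329), and the call held only without stabilised 1 or without wild type 2 (otherwise adjusted p up to 0.153). The list median was -1.22 in the stabilised line and -0.23 in the knockout-labelled line, and 6 members were called between the lines. With stabilised 1 and knockout-labelled 3 left out, 8 dawn members fell, and with 1 mean for both lines 1 did.

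Among 18 B-box and light signalling genes 2 rose and 3 fell, 27.8% called against 5.17% of all genes, with a median of -0.39. With 1 mean for both lines the 3 falls lost their calls. BBX22 (AT1G78600, listed as LZF1), a zinc finger protein that promotes light-dependent development, stood at 48.7, 34.0 and 38.2 RPKM in stabilised and 46.2, 45.5 and 33.2 RPKM in knockout-labelled libraries, against 10.0, 10.4 and 16.4 RPKM in the wild type. It rose 3.29-fold (log2 1.72, SE 0.19, adjusted p = 0.00371), with overlapping ranges in both lines (log2 0.14, adjusted p = 0.646 between them). BBX29 rose too (log2 1.33, adjusted p = 0.0227), though not without knockout-labelled 1 or 2 or wild type 2 or 3 (adjusted p up to 0.0964). BBX3 (AT3G02380, listed as COL2), a relative of the flowering regulator CONSTANS, stood at 12.4, 9.29 and 11.6 RPKM in stabilised and 38.3, 37.0 and 33.7 RPKM in knockout-labelled libraries, against 57.2, 37.3 and 42.4 RPKM in the wild type. By CPM the 6 values lay below the wild type, and the gene fell (log2 -1.20, SE 0.13, adjusted p = 0.00365), with -1.97 in the stabilised and -0.44 in the knockout-labelled line and a called difference between the lines (log2 -1.52, adjusted p = 0.00999). In RPKM knockout-labelled 1 stood above wild type 2. BBX2 (listed as COL1; log2 -0.66, adjusted p = 0.0109) and BBX19 (log2 -0.91, adjusted p = 0.0163) fell with overlap. BBX2 and BBX3 drew 19.8% and 69.2% of their reads from unique positions, so reads may be split between such close relatives, and each overlaps a neighbouring gene. Whether counting used the strand is not stated, and reads of overlapping partners cannot be told apart here or in the overlaps named below.

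**Figure D2:**
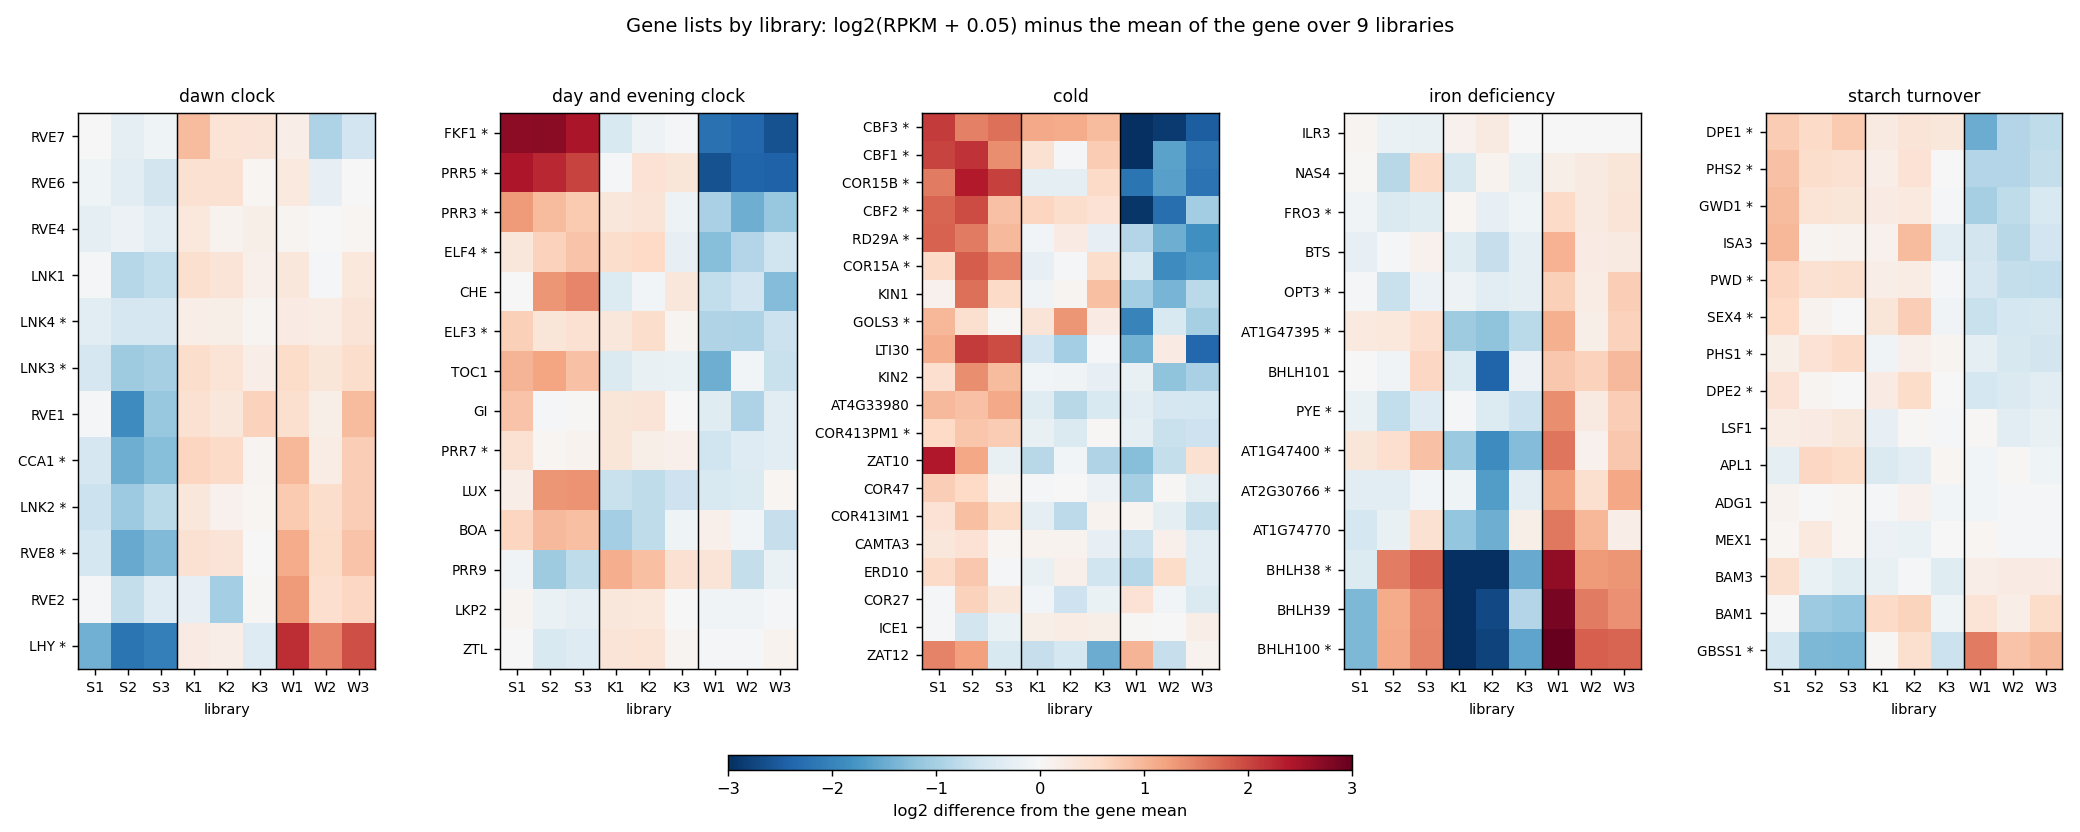
Each cell shows log2(RPKM + 0.05) of a gene in 1 library minus the mean of that gene over the 9 libraries, for 5 lists, with stabilised (S1 to S3), knockout-labelled (K1 to K3) and wild-type (W1 to W3) libraries from left to right. Asterisks mark members called in both lines together: 6 of 12 dawn genes and 8 of 14 iron genes were lower in the lines, and 6 of 14 day and evening genes, 8 of 20 cold genes and 7 of 15 starch genes were higher.

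Of 20 cold acclimation genes 8 rose in both lines together and 0 fell, 40.0% called against 2.69% of all genes called higher, with a median of 0.96. Of the 8, 7 moved the same way in both lines, among them the 3 CBF factors at the head of that response, and the list median was 1.81 in the stabilised but 0.20 in the knockout-labelled line. With 1 mean for both lines 2 members rose. CBF3 (AT4G25480; chromosome 4, 13018010 to 13019400) is listed as DREB1A and encodes a factor that switches on cold-protective genes. It stood at 10.4, 6.91 and 7.70 RPKM in stabilised and 5.34, 5.30 and 4.65 RPKM in knockout-labelled libraries, against 0.234, 0.285 and 0.391 RPKM in the wild type. It was 21.0-fold higher (log2 4.39, SE 0.19, adjusted p = 5.62e-05), with no overlap between the 3 groups. Its neighbours in the same gene cluster behaved likewise: CBF1 (listed as DREB1B) stood at 3.78, 4.18 and 2.41 RPKM in stabilised and 1.23, 0.849 and 1.54 RPKM in knockout-labelled libraries, against 0.0669, 0.257 and 0.163 RPKM in the wild type. CBF1 gave log2 3.59, SE 0.44, adjusted p = 0.00541 in both lines together. CBF2 (listed as DREB1C) stood at 11.6, 13.6 and 6.37 RPKM in stabilised and 5.44, 5.01 and 4.66 RPKM in knockout-labelled libraries, against 0.413, 0.677 and 1.66 RPKM in the wild type. CBF2 gave log2 2.97, SE 0.45, adjusted p = 0.0116 in both lines together. In all 3 CBF genes every library of the lines exceeded the highest wild-type library, which counting as moved the same way required. Wild-type levels were at or below 1.66 RPKM.

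Some genes that CBF factors switch on were also called higher, and a link to the CBF levels was not tested. COR15B (AT2G42530), a chloroplast protein that protects membranes in the cold and a target of CBF factors, which shares 468 bases with its neighbour RH37, stood at 27.0, 47.6 and 38.1 RPKM in stabilised and 7.54, 7.57 and 13.6 RPKM in knockout-labelled libraries, against 1.95, 2.94 and 1.92 RPKM in the wild type. It rose 8.33-fold (log2 3.06, SE 0.34, adjusted p = 0.00378), and the stabilised line lay above the knockout-labelled line (log2 2.18, adjusted p = 0.0185). Its neighbour and relative COR15A (log2 1.96, SE 0.45, adjusted p = 0.0475) and the galactinol synthase GOLS3 (log2 1.66, SE 0.39, adjusted p = 0.0486) were called with little margin. COR15A kept its call in 2 of 9 fits that each left out 1 library, those without stabilised 1 or wild type 1, and GOLS3 in 0 of 9 (adjusted p up to 0.165 and 0.151). RD29A, a hydrophilic protein of cold and drought, rose without overlap (log2 2.05, SE 0.25, adjusted p = 0.0055). COR413PM1, a membrane protein of cold acclimation, was called (log2 0.77, adjusted p = 0.0396) but overlapped the wild type, with log2 fold changes of 1.34 in the stabilised and 0.21 in the knockout-labelled line, and kept its call only without stabilised 1 or knockout-labelled 2 (otherwise adjusted p up to 0.145).

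The cold list as a whole was uneven between the lines. Of its 20 members, 7 differed between the lines. KIN2, a small cold and abscisic acid induced protein, gave 1.83 in the stabilised and 0.47 in the knockout-labelled line, and in both together log2 1.15, adjusted p = 0.0589. The dehydrin gene LTI30 gave 2.67 in the stabilised and 0.18 in the knockout-labelled line, and COR47, another dehydrin, 0.93 in the stabilised and 0.17 in the knockout-labelled line. The regulators ICE1 and CAMTA3, which act upstream of CBF genes, gave -0.12 (adjusted p = 0.469) and 0.37 (adjusted p = 0.291). Without stabilised 1 and knockout-labelled 3, 9 members rose, and 5 did without stabilised 2 or 3, knockout-labelled 1 or 3, or wild type 3.

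Of 15 starch turnover genes 7 rose in both lines together and 1, the amylose synthase gene GBSS1, fell, 53.3% called against 5.17% of all genes, with a median of 0.63. With 1 mean for both lines 5 rose and the fall lost its call. PHS2 (AT3G46970), the cytosolic glucan phosphorylase, stood at 173, 136 and 129.9 RPKM in stabilised and 108, 128 and 95.6 RPKM in knockout-labelled libraries, against 51.7, 51.2 and 57.7 RPKM in the wild type. It rose 2.34-fold (log2 1.23, SE 0.11, adjusted p = 0.00161), with no library of the lines below 95.6 RPKM and no wild-type library above 57.7 RPKM. DPE1 (AT5G64860), the plastid disproportionating enzyme that recycles short glucans, stood at 27.0, 24.0 and 27.6 RPKM in stabilised and 19.5, 20.8 and 20.3 RPKM in knockout-labelled libraries, against 5.72, 8.74 and 9.42 RPKM in the wild type. DPE1 gave log2 1.52, SE 0.15, adjusted p = 0.0024 in both lines together. PWD (AT5G26570, listed as GWD3), a dikinase that phosphorylates glucans for breakdown, stood at 40.1, 35.5 and 35.9 RPKM in stabilised and 29.7, 29.8 and 25.0 RPKM in knockout-labelled libraries, against 17.9, 15.6 and 15.3 RPKM in the wild type. PWD gave log2 0.97, SE 0.08, adjusted p = 0.0015 in both lines together. GWD1, the other glucan dikinase, rose similarly (log2 1.09, adjusted p = 0.00909).

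Smaller rises were those of the phosphoglucan phosphatase SEX4 (log2 0.85, adjusted p = 0.0285), the cytosolic enzyme DPE2 (log2 0.63, adjusted p = 0.0246) and the plastid phosphorylase PHS1 (log2 0.65, adjusted p = 0.0369). SEX4 and DPE2 lost the call without stabilised 2, knockout-labelled 1 or any wild-type library (adjusted p up to 0.116 and 0.105), and PHS1 kept it only without stabilised 1 (otherwise adjusted p up to 0.141). Accordingly 4 members rose without stabilised 2, knockout-labelled 1 or any 1 wild-type library. GBSS1, which makes amylose, stood at 151, 84.8 and 83.8 RPKM in stabilised and 224, 302 and 138 RPKM in knockout-labelled libraries, against 639.7, 390.0 and 429 RPKM in the wild type, and fell (log2 -1.70, SE 0.26, adjusted p = 0.0116). The subunits of the enzyme that supplies starch synthesis, ADG1 and APL1, gave 0.07 and 0.11 (adjusted p = 0.653 and 0.842). The maltose exporter MEX1 gave 0.01 (adjusted p = 0.976).

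Of 14 iron deficiency genes 8 fell in both lines together and 0 rose, 57.1% called against 2.48% of all genes called lower, with 13 of 14 below 0 and a median of -1.19. Of the 8, 5 moved the same way in both lines. With 1 mean for both lines 3 members fell, and 4 did by limma-voom. FRO3 (AT1G23020), a ferric reductase, stood at 17.2, 13.9 and 14.3 RPKM in stabilised and 19.2, 15.7 and 17.0 RPKM in knockout-labelled libraries, against 27.9, 22.6 and 24.2 RPKM in the wild type. Its estimated fall was alike in each line (-0.64 and -0.64 on the log2 scale in the stabilised and knockout-labelled line; log2 -0.64, SE 0.10, adjusted p = 0.0116 together), and it was the 1 iron gene called in all 9 fits that left out a library. OPT3 (AT4G16370), a phloem transporter that signals leaf iron, stood at 108, 70.0 and 97.6 RPKM in stabilised and 99.8, 88.0 and 90.6 RPKM in knockout-labelled libraries, against 182, 131 and 184 RPKM in the wild type. OPT3 gave log2 -0.86, SE 0.15, adjusted p = 0.0169 in both lines together, and it lost its call without wild type 1 or 3 (adjusted p up to 0.0716). PYE (AT3G47640, listed as BHLH47), a regulator of the iron response, stood at 8.98, 6.20 and 7.87 RPKM in stabilised and 10.2, 7.84 and 6.62 RPKM in knockout-labelled libraries, against 27.1, 12.6 and 17.3 RPKM in the wild type. PYE gave log2 -1.28, SE 0.23, adjusted p = 0.0203 in both lines together, and it lost its call without knockout-labelled 2 or wild type 1 or 3 (adjusted p up to 0.0604).

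The iron regulators BHLH100 and BHLH38, which promote iron uptake, varied more between libraries. BHLH100 (AT2G41240; chromosome 2, 17198037 to 17199454) stood at 0.564, 3.39 and 4.38 RPKM in stabilised and 0.0488, 0.179 and 0.480 RPKM in knockout-labelled libraries, against 18.6, 5.37 and 5.20 RPKM in the wild type. It was 11.8-fold lower in both lines together (log2 -3.56, SE 0.73, adjusted p = 0.0317), the second largest fall among genes moved the same way with a mean of at least 1 RPKM, with log2 fold changes of -1.68 in the stabilised and -5.44 in the knockout-labelled line. The wild type itself spread over 5.20 to 18.6 RPKM, and the call held in 2 of 9 fits that left out a library, those without stabilised 1 or knockout-labelled 3. Without wild type 1 the value was log2 -2.67, adjusted p = 0.134. Its relative BHLH38 (AT3G56970, listed as ORG2) was called (log2 -2.56, adjusted p = 0.0485) but stood at 2.11, 8.19 and 9.67 RPKM in stabilised and 0.235, 0.239 and 0.952 RPKM in knockout-labelled libraries, against 17.9, 6.90 and 7.09 RPKM in the wild type. Of the 3 stabilised libraries 2 lay above the lowest wild-type value, and the lines differed from each other (log2 4.01, adjusted p = 0.0337). BHLH39 gave -2.77 (adjusted p = 0.07). BHLH38 held its call only without stabilised 1 or knockout-labelled 3 (otherwise adjusted p up to 0.194) and shares 386 bases with PIP5K4.

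The list members AT1G47400, AT1G47395 and AT2G30766, annotated as uncharacterised, were called as well. AT1G47400 gave log2 -1.39, adjusted p = 0.0436, AT1G47395 log2 -1.03, adjusted p = 0.0252 and AT2G30766 log2 -1.43, adjusted p = 0.0421, and of these AT2G30766 moved the same way in both lines. AT1G47400 held its call only without wild type 2, AT1G47395 only without stabilised 1 or 3, knockout-labelled 3 or wild type 2, and AT2G30766 only without knockout-labelled 2 (otherwise adjusted p up to 0.155, 0.0914 and 0.151). AT2G30766 shares 572 bases with CYP71A13. The list count moved with single libraries: 1 member fell without wild type 1 or 3, 3 without stabilised 2, knockout-labelled 1 or knockout-labelled 2, 4 without stabilised 3 and 5 without wild type 2, while 8 fell without stabilised 1 and knockout-labelled 3 together. The list median stayed between -1.38 and -0.92 over the 9 fits.

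Of 3 ferritin genes, which encode iron stores, edgeR called 0, and the median was 0.73. Before adjustment 1 was higher at a p under 0.05, and DESeq2 called 1 higher. FER4, a ferritin of plastids and mitochondria, stood at 8.06, 5.25 and 7.53 RPKM in stabilised and 14.9, 16.8 and 9.69 RPKM in knockout-labelled libraries, against 6.29, 5.33 and 3.34 RPKM in the wild type. FER4 gave log2 0.95, SE 0.24, adjusted p = 0.0615 in both lines together.

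**Figure D3:**
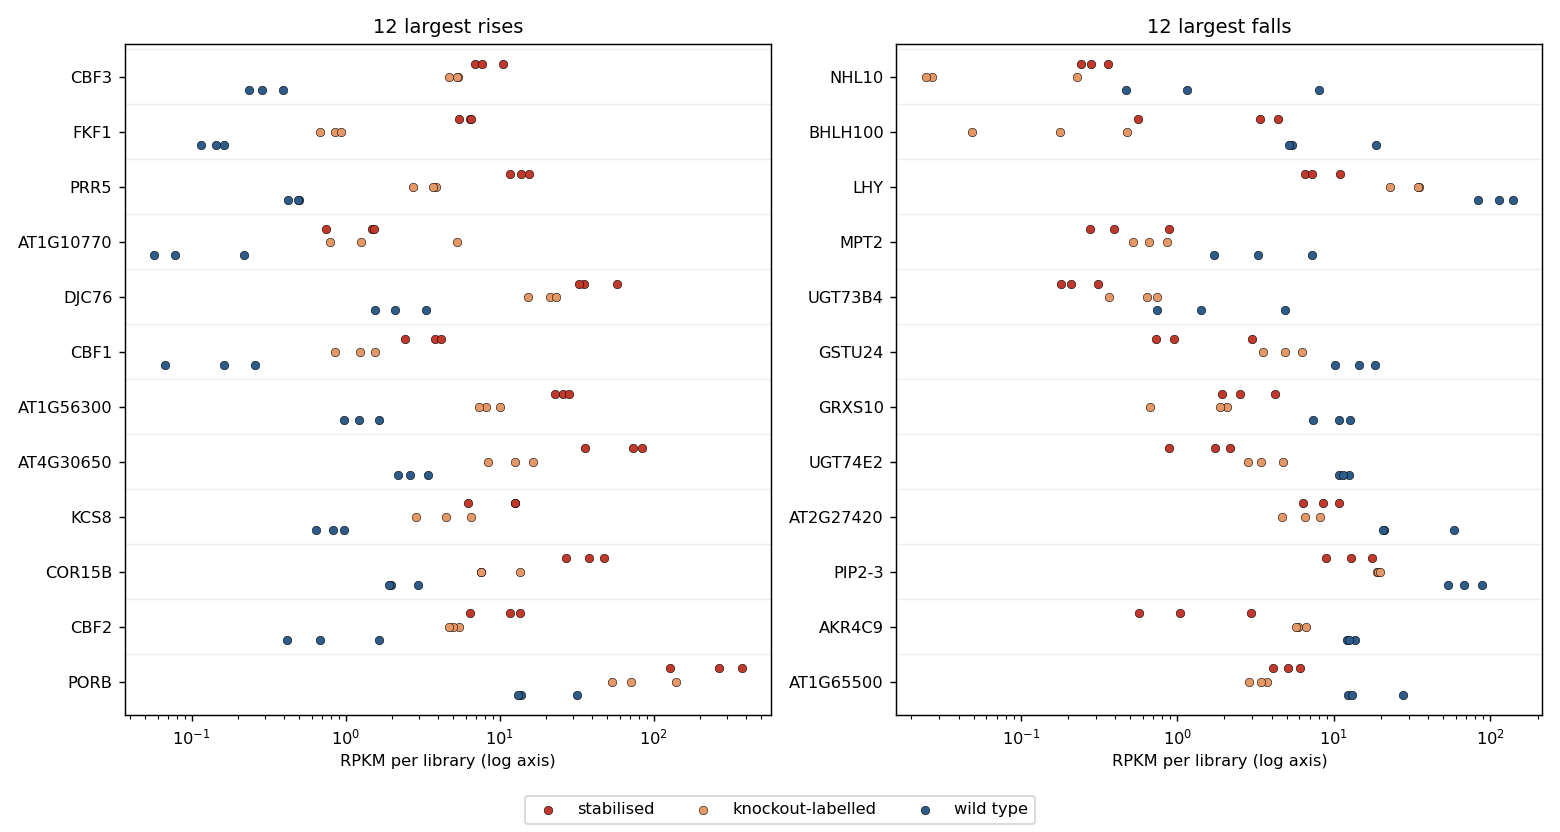
RPKM of each library on a log axis for the 12 largest rises and the 12 largest falls among genes moved the same way with a mean of at least 1 RPKM. Within each row the stabilised libraries are drawn at the top, the knockout-labelled in the middle and the wild type at the bottom, whatever their levels. CBF3 stands at 4.65 to 10.4 RPKM in the 6 libraries of the lines and 0.234 to 0.391 RPKM in the wild type; for NHL10 the 3 wild-type libraries themselves spread from 0.472 to 8.09 RPKM.

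The other named rises were those of 2 chaperone genes, a fatty acid elongase, a chlorophyll synthesis enzyme and 2 family members of less known role. DJC76 (AT5G23240), a DnaJ-domain protein of the chloroplast, stood at 57.6, 35.4 and 32.6 RPKM in stabilised and 21.3, 23.3 and 15.4 RPKM in knockout-labelled libraries, against 1.55, 2.08 and 3.32 RPKM in the wild type. It rose 12.2-fold (log2 3.61, SE 0.29, adjusted p = 0.00122). A further DnaJ-domain gene, AT1G56300, stood at 25.7, 28.2 and 22.9 RPKM in stabilised and 8.21, 10.0 and 7.39 RPKM in knockout-labelled libraries, against 1.65, 1.22 and 0.981 RPKM in the wild type. It rose 11.4-fold (log2 3.51, SE 0.20, adjusted p = 0.000196). Of its bases, 775 are shared with the neighbouring gene AT1G56290. In both chaperone genes the stabilised libraries lay above the knockout-labelled ones. All 6 lay above the wild type, which the choice of these genes required.

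AT4G30650, annotated as a low temperature and salt responsive protein, stood at 35.8, 84.2 and 73.1 RPKM in stabilised and 8.40, 12.5 and 16.5 RPKM in knockout-labelled libraries, against 3.44, 2.19 and 2.63 RPKM in the wild type. AT4G30650 gave log2 3.37, SE 0.40, adjusted p = 0.00517 in both lines together. KCS8 (AT2G15090), an enzyme that elongates very-long-chain fatty acids, stood at 6.27, 12.7 and 12.5 RPKM in stabilised and 2.85, 4.50 and 6.51 RPKM in knockout-labelled libraries, against 0.973, 0.833 and 0.646 RPKM in the wild type. KCS8 gave log2 3.09, SE 0.40, adjusted p = 0.00614 in both lines together. PORB (AT4G27440), the light-dependent protochlorophyllide reductase of chlorophyll synthesis, stood at 127, 267 and 374 RPKM in stabilised and 53.4, 71.6 and 139.6 RPKM in knockout-labelled libraries, against 13.8, 31.8 and 13.1 RPKM in the wild type. PORB gave log2 2.95, SE 0.55, adjusted p = 0.023 in both lines together. All 6 libraries of the lines exceeded the wild type in each of these 3 genes, which their choice required. PORB lost its call without wild type 1 or 3 (adjusted p up to 0.101). AT1G10770, annotated as an invertase or pectin methylesterase inhibitor, stood at 1.48, 0.740 and 1.52 RPKM in stabilised and 1.25, 0.791 and 5.27 RPKM in knockout-labelled libraries, against 0.0573, 0.220 and 0.0783 RPKM in the wild type. AT1G10770 gave log2 3.79, SE 0.83, adjusted p = 0.0397 in both lines together. Its highest value was in knockout-labelled 3, the library with high AP3 and PI, whose part in this rise was not tested. Without that library the value was log2 3.13, adjusted p = 0.027. The call was lost without stabilised 2 or 3, knockout-labelled 1 or any wild-type library (adjusted p up to 0.144).

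The named falls outside the clock and iron lists included a glutathione transferase, glycosyltransferases, a glutaredoxin and a water channel. GSTU24 (AT1G17170), a glutathione transferase, stood at 2.99, 0.730 and 0.949 RPKM in stabilised and 4.84, 6.24 and 3.52 RPKM in knockout-labelled libraries, against 18.4, 14.5 and 10.1 RPKM in the wild type. It was 5.38-fold lower (log2 -2.43, SE 0.37, adjusted p = 0.0114). UGT74E2 (AT1G05680), which glucosylates the auxin precursor indole-3-butyric acid, stood at 1.75, 0.883 and 2.18 RPKM in stabilised and 3.43, 2.81 and 4.70 RPKM in knockout-labelled libraries, against 12.5, 10.8 and 11.4 RPKM in the wild type. UGT74E2 gave log2 -2.27, SE 0.25, adjusted p = 0.00365 in both lines together. Both genes and the aquaporin PIP2-3 (AT2G37180), a water channel of the plasma membrane, kept their calls without any 1 library. PIP2-3 stood at 8.91, 17.4 and 12.9 RPKM in stabilised and 18.7, 19.1 and 19.6 RPKM in knockout-labelled libraries, against 88.1, 53.8 and 68.1 RPKM in the wild type. PIP2-3 gave log2 -2.15, SE 0.23, adjusted p = 0.00338 in both lines together, and the wild type held at least 53.8 RPKM where the lines held at most 19.6 RPKM.

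GRXS10, a glutaredoxin, fell in both lines (log2 -2.28, adjusted p = 0.0135) but not without wild type 3 (adjusted p up to 0.0529). AKR4C9, an aldo-keto reductase of carbonyl detoxification, fell as well (log2 -2.11, adjusted p = 0.0152), though not without wild type 1 or 3 (adjusted p up to 0.0568), and more in the stabilised line (log2 -1.87, adjusted p = 0.0439 between the lines). The glycosyltransferase UGT73B4 was called (log2 -2.69, adjusted p = 0.0281), with 14.5% of its reads unique and 1866 bases shared with its relative UGT73B5, so its value is uncertain. Without wild type 1 it was log2 -1.57, adjusted p = 0.0834, and the call was also lost without stabilised 2 or 3 or any 1 knockout-labelled library. AT1G65500, annotated as uncharacterised, stood at 4.06, 5.10 and 6.10 RPKM in stabilised and 3.74, 3.42 and 2.87 RPKM in knockout-labelled libraries, against 12.3, 13.1 and 27.6 RPKM in the wild type. AT1G65500 gave log2 -2.11, SE 0.27, adjusted p = 0.00614 in both lines together.

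For 3 more falls the wild type was itself uneven, with wild type 1 far above its group. Wild type 1 stood far above its group in UGT73B4, BHLH100, BHLH38, PAD3 and CYP71A13 too, and less so in PYE and RD20. In UGT73B4 it held 4.86 RPKM, against 1.42 and 0.740 RPKM in wild type 2 and 3. NHL10 (AT2G35980), a gene induced early in immune responses, stood at 0.280, 0.363 and 0.242 RPKM in stabilised and 0.0269, 0.0247 and 0.227 RPKM in knockout-labelled libraries, against 8.09, 1.15 and 0.472 RPKM in the wild type. NHL10 gave log2 -4.26, SE 0.90, adjusted p = 0.0357 in both lines together. Without wild type 1 its value was log2 -2.27, adjusted p = 0.161. The call was also lost without stabilised 2 or 3 or knockout-labelled 1 or 2. MPT2 (AT3G48850), a mitochondrial phosphate carrier, stood at 0.886, 0.397 and 0.275 RPKM in stabilised and 0.517, 0.859 and 0.663 RPKM in knockout-labelled libraries, against 7.24, 1.71 and 3.29 RPKM in the wild type. MPT2 gave log2 -2.82, SE 0.46, adjusted p = 0.0152 in both lines together, and it was log2 -2.10, adjusted p = 0.0517 without wild type 1. AT2G27420, annotated as a cysteine proteinase, stood at 6.39, 8.56 and 10.8 RPKM in stabilised and 4.63, 6.54 and 8.13 RPKM in knockout-labelled libraries, against 58.7, 20.8 and 20.7 RPKM in the wild type. AT2G27420 gave log2 -2.18, SE 0.37, adjusted p = 0.0173 in both lines together, and it was log2 -1.48, adjusted p = 0.0387 without wild type 1. The 6 libraries of the lines lay below all 3 wild-type libraries in each of NHL10, MPT2 and AT2G27420. That was a condition of their choice and adds no further support.

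The shares of defence genes called lay between 0 and 13.3% in 5 lists, beside 5.17% of all genes. Jasmonate genes had 1 fall among 30, JMT, the enzyme that methylates jasmonic acid (2.03 to 4.54 RPKM in the lines, against 5.36 to 6.99 RPKM in the wild type; log2 -1.06, SE 0.22, adjusted p = 0.0323), which was lost without stabilised 2 or 3, knockout-labelled 1 or any wild-type library (adjusted p up to 0.131). The list median was 0.67 in the stabilised line and -1.14 in the knockout-labelled line, and 15 of the 30 genes differed between the lines, so the median of -0.16 in both together averages opposite values. Aliphatic glucosinolate genes likewise had medians of 0.28 and -0.71, 18 of 27 genes differed between the lines, and 1 was called in both together. That gene, the glucosyltransferase UGT74C1, had 56.8 to 87.5 RPKM in the lines, against 99.9 to 107 RPKM in the wild type (log2 -0.54, SE 0.10, adjusted p = 0.0213), and lost its call without knockout-labelled 1 or 2 or any wild-type library (adjusted p up to 0.0932). Before adjustment 8 aliphatic glucosinolate genes were lower and 0 higher at a p under 0.05, and DESeq2 called 5 lower and 0 higher.

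Of 15 indole glucosinolate and camalexin genes 2 fell, PAD3 (AT3G26830, listed as CYP71B15), which makes the last step of the antimicrobial camalexin, and CYP71A13, which makes an earlier one. PAD3 stood at 6.82, 3.82 and 4.23 RPKM in stabilised and 1.18, 1.24 and 0.847 RPKM in knockout-labelled libraries, against 48.5, 5.95 and 8.23 RPKM in the wild type. PAD3 gave log2 -3.20, SE 0.60, adjusted p = 0.023 in both lines together. CYP71A13 had 0.277 to 3.12 RPKM in the lines, against 1.61 to 22.4 RPKM in the wild type (log2 -3.60, SE 0.84, adjusted p = 0.0475), and overlaps AT2G30766. Both genes overlapped between the groups, and wild type 1 was far above the other wild-type libraries: without it PAD3 gave log2 -1.63, adjusted p = 0.0153 and CYP71A13 log2 -1.39, adjusted p = 0.219. Both calls were lost without stabilised 2 or 3 or any knockout-labelled library (adjusted p up to 0.0653 for PAD3).

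Pattern-triggered immunity had 1 fall among 17 genes, the receptor kinase gene FRK1 (listed as SIRK), with 0.422 to 1.27 RPKM in the lines, against 0.966 to 3.17 RPKM in the wild type (log2 -1.68, SE 0.38, adjusted p = 0.0457), and a median of 0.25. Its call held only without stabilised 1 or wild type 1 (otherwise adjusted p up to 0.176). Of 20 salicylic acid genes edgeR called 0, around a median of 0.20. Before adjustment 2 of them were higher and 1 lower at a p under 0.05, and DESeq2 called 1 lower. ALD1, which makes the immune signal precursor pipecolic acid, had 0.0180 to 0.332 RPKM in the lines, against 0.0630 to 1.94 RPKM in the wild type (log2 -3.18, SE 0.98, adjusted p = 0.106).

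Auxin lists lay near the share of all genes called. Of 23 Aux/IAA genes 2 fell and 0 rose, 8.70% called against 5.17% of all genes, IAA26 and IAA17, with a median of 0.15. IAA17 (AT1G04250), another repressor of the family, stood at 41.7, 39.7 and 43.1 RPKM in stabilised and 48.1, 45.5 and 46.9 RPKM in knockout-labelled libraries, against 65.3, 60.0 and 59.8 RPKM in the wild type. Its estimated fall was alike in each line (-0.49 and -0.51 on the log2 scale in the stabilised and knockout-labelled line; log2 -0.50, SE 0.07, adjusted p = 0.00932 together), and it kept its call without any 1 library. Of 34 auxin response and transport genes 1 fell, 2.94% called, the auxin receptor AFB3 (19.3 to 33.2 RPKM in the lines, against 34.0 to 35.8 RPKM in the wild type; log2 -0.43, SE 0.07, adjusted p = 0.0172), which lost its call without wild type 1 or 3 (adjusted p up to 0.0702) and had 72.2% of reads unique. The median of that list was 0.22.

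In stress lists 11.1% of membrane desaturase, 7.14% of abscisic acid and 13.3% of heat shock genes were called, beside 5.17% of all genes. Of 9 membrane desaturase genes 1 rose. ADS2 (AT2G31360), an acyl-lipid desaturase, stood at 76.9, 95.0 and 105 RPKM in stabilised and 29.0, 40.7 and 37.2 RPKM in knockout-labelled libraries, against 13.0, 12.9 and 14.5 RPKM in the wild type. It rose 4.23-fold (log2 2.08, SE 0.17, adjusted p = 0.00122), and the 3 groups did not overlap. Abscisic acid and drought had 1 fall among 14 genes, the caleosin RD20 (listed as PXG3; 69.2 to 125 RPKM in the lines, against 161 to 329 RPKM in the wild type; log2 -1.22, SE 0.21, adjusted p = 0.0185), which was log2 -1.22, adjusted p = 0.0511 without knockout-labelled 2, and a median of 0.11. Heat shock had 2 falls among 15 genes, the small chaperones HSP17.6A (listed as HSP17.7; log2 -2.57, adjusted p = 0.017) and HSP17.6C (log2 -1.11, adjusted p = 0.032), around a median of -0.79. Of its members 13 were below 0 and 2 above. Before adjustment 8 were lower and 2 higher at a p under 0.05, and DESeq2 called 7 lower and 2 higher. HSP17.6A overlapped the wild type, with 0.201 to 1.34 RPKM in the lines, against 1.14 to 3.97 RPKM. It had 7 to 9 exon reads per stabilised library and 18 to 42 per knockout-labelled library. HSP17.6A lost its call without wild type 1 or 3 (adjusted p up to 0.0703) and HSP17.6C without 7 of the 9 libraries, all but stabilised 1 and wild type 2 (adjusted p up to 0.142).

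Lists of development and metabolism held 0 to 3 calls each. Called were 6.45% of phase change and flowering, 10.5% of flavonoid and 9.09% of senescence genes, beside 5.17% of all genes. Of RNA silencing, cell expansion and nuclear photosynthesis genes 16.7%, 8.33% and 0% were called. Of 31 phase change and flowering genes 2 fell. CDF2 (AT5G39660), a DOF factor that FKF1 marks for destruction, stood at 7.40, 4.64 and 5.52 RPKM in stabilised and 10.7, 9.61 and 11.8 RPKM in knockout-labelled libraries, against 13.5, 19.4 and 21.4 RPKM in the wild type. CDF2 gave log2 -1.21, SE 0.16, adjusted p = 0.00663 in both lines together, with all 6 libraries below the wild type and the call kept without any 1 library. The floral repressor SNZ fell too (log2 -0.61, adjusted p = 0.0418), with its call held only without stabilised 1 or 2 (otherwise adjusted p up to 0.141). Flavonoid genes had 2 falls among 19, the flavonol rhamnosyltransferase UGT78D1 (18.7 to 40.2 RPKM in the lines, against 44.4 to 71.5 RPKM in the wild type; log2 -0.97, SE 0.15, adjusted p = 0.0138) and 4CL3 (log2 -1.90, adjusted p = 0.023), the second of which was lost without stabilised 3, knockout-labelled 3 or wild type 1 or 3 (adjusted p up to 0.0904). The flavonoid median was -0.23 in both together, and -0.81 and 0.43 in the stabilised and knockout-labelled line.

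Senescence had 2 falls among 22 genes, the transcription factors WRKY45 (log2 -0.94, adjusted p = 0.0357) and NAP (listed as NAC029; log2 -0.88, adjusted p = 0.0411), both overlapping the wild type. Before adjustment 6 senescence genes were lower and 1 higher at a p under 0.05, and DESeq2 called 5 lower and 1 higher. WRKY45 held its call only without stabilised 1, knockout-labelled 1 or wild type 3, and NAP only without stabilised 1 (otherwise adjusted p up to 0.137 and 0.136). Of RNA silencing and tobamovirus host factors 2 of 18 rose, SGS3 (log2 0.44, adjusted p = 0.0129), which stabilises RNA for small RNA production, and the Argonaute gene AGO10 (log2 0.54, adjusted p = 0.0199), and TOM1, a membrane protein that tobamoviruses need, fell (log2 -0.40, adjusted p = 0.0426). SGS3 lost its call without wild type 1 (adjusted p up to 0.0545), AGO10 without knockout-labelled 1 or wild type 1 or 3 (adjusted p up to 0.0843), and TOM1 held it only without stabilised 1 or 2 (otherwise adjusted p up to 0.167). Cell expansion had 1 fall among 12 genes, the expansin EXPA4 (log2 -0.80, adjusted p = 0.0466), with the call held only without stabilised 1 or 2 (otherwise adjusted p up to 0.158). Of 32 nuclear photosynthesis genes edgeR called 0, around a median of 0.10. Before adjustment 3 of them were lower at a p under 0.05, and DESeq2 called 1 lower. The rubisco activase gene RCA had 3638 to 5610 RPKM in the lines, against 5884 to 7235 RPKM in the wild type (log2 -0.55, adjusted p = 0.0776).

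Small lists also lost or gained calls under other settings. With 1 mean for both lines, the calls left in them were 1 fall among Aux/IAA, abscisic acid and phloem marker genes each and 2 rises among B-box and RNA silencing genes each. Without stabilised 1 there were 4 falls among heat shock, senescence and flavonoid genes each, 3 among starch genes, 2 among aliphatic glucosinolate, abscisic acid and desaturase genes each, 3 rises and 3 falls among Aux/IAA genes, 2 rises among cell expansion genes and 1 rise among auxin response and pattern-triggered immunity genes each. Without wild type 2 there were 5 falls among heat shock genes and 1 among desaturases, and 1 rise among indole glucosinolate and auxin response genes each. Without wild type 3 indole glucosinolate and camalexin genes had 3 falls, and the flavonoid median was 0.04. Without wild type 1 there was 1 rise among dawn clock, heat shock and abscisic acid genes each, and without stabilised 3 also 1 among heat shock genes.

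**Figure D4:**
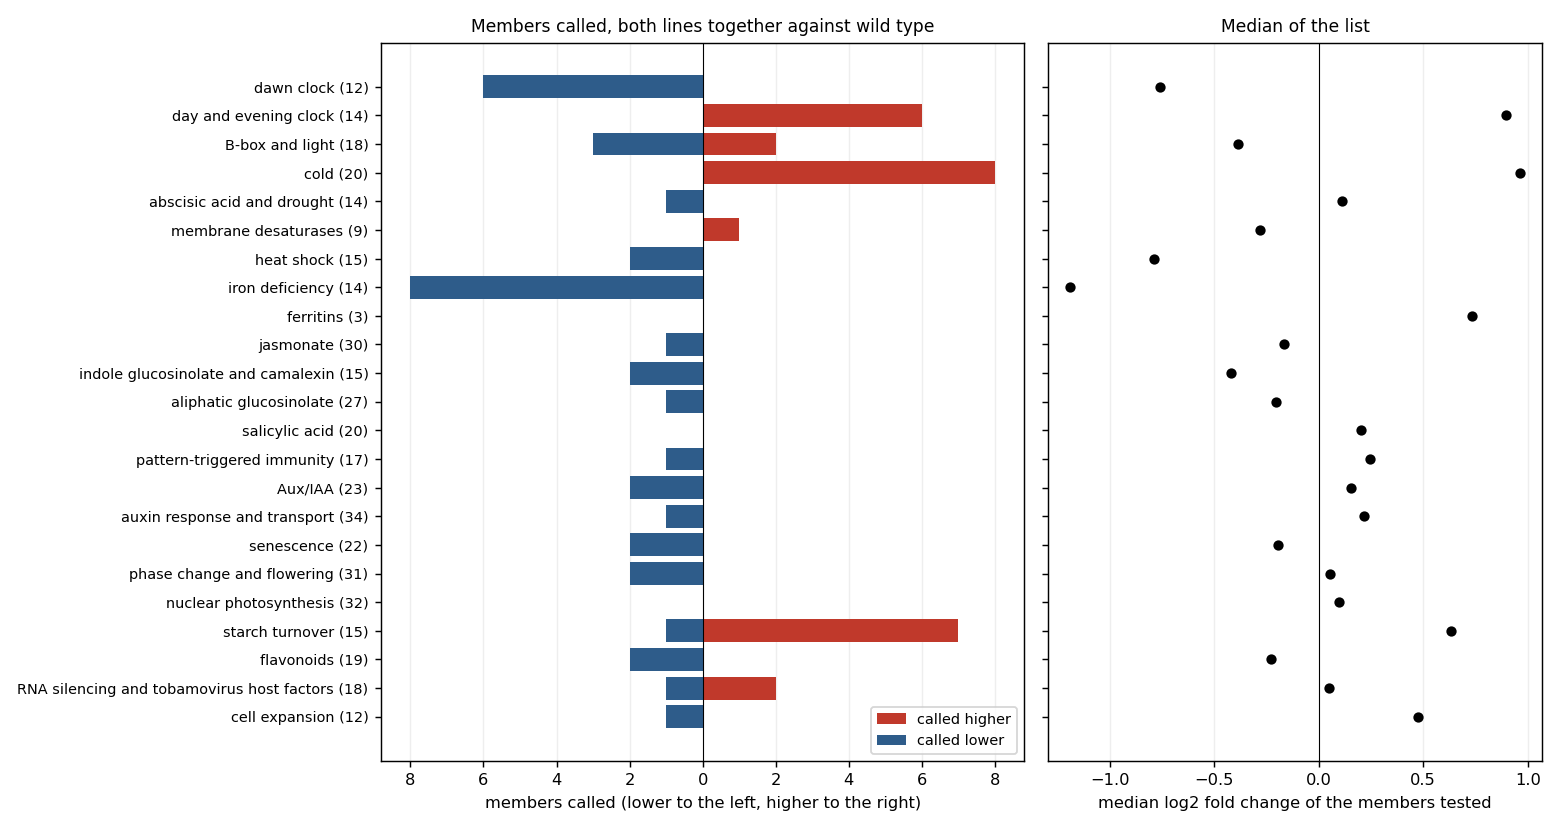
Number of members called higher (right) or lower (left) in both lines together against wild type for 23 gene lists, with the number tested in brackets, and beside it the median log2 fold change of the tested members. The dawn clock (6 lower), day and evening clock (6 higher), cold (8 higher), iron deficiency (8 lower) and starch turnover (7 higher, 1 lower) lists hold most of the calls.

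The largest called differences between the lines, among genes called in both lines together, were those of BHLH38 and FKF1, described above, and of AT1G69890 and AT5G62720. AT1G69890, annotated as an actin cross-linking protein, stood at 43.3, 81.9 and 41.7 RPKM in stabilised and 6.92, 7.73 and 9.57 RPKM in knockout-labelled libraries, against 5.23, 11.1 and 5.20 RPKM in the wild type. Its combined value (log2 1.56, SE 0.36, adjusted p = 0.0454) came from log2 fold changes of 3.06 in the stabilised and 0.06 in the knockout-labelled line, which differed by log2 3.00, adjusted p = 0.0135, and its call held only without stabilised 1 or wild type 2 (otherwise adjusted p up to 0.171). AT5G62720, annotated as an integral membrane protein, stood at 16.9, 33.5 and 32.6 RPKM in stabilised and 3.65, 4.70 and 7.10 RPKM in knockout-labelled libraries, against 3.83, 3.25 and 3.24 RPKM in the wild type. Its combined value was log2 1.80, SE 0.32, adjusted p = 0.0203, from 3.11 in the stabilised and 0.48 in the knockout-labelled line, a difference of log2 2.64, adjusted p = 0.0134. It lost its call without any 1 wild-type library (adjusted p up to 0.0843). In both genes the knockout-labelled libraries overlapped the wild type, so they were called in both lines together without having moved the same way.

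Chloroplast-encoded genes took a smaller share of exon reads in the lines, 0.277% ± 0.0281 (SD, n = 6), against 0.339% ± 0.0137 in the wild type (SD, n = 3). The 2 sets did not overlap, and an exact two-sided permutation test gave p = 0.0238, the smallest that 6 against 3 allows; without any 1 wild-type library p was 0.0714, the smallest that 6 against 2 allows. Every library held such reads at 0.352% or less, and whether this share follows chloroplast transcript levels or library preparation was not tested. Phloem markers summed to 214 to 275 RPKM in the stabilised and 281 to 314 RPKM in the knockout-labelled line, against 369 to 384 RPKM in the wild type. The list median was 0.04, with 4 members above 0 and 3 below. Of the 7 members 1 was called (14.3%, beside 5.17% of all genes), the sucrose exporter SWEET11 (log2 -0.93, SE 0.13, adjusted p = 0.00876). SWEET11 averaged 89.5, 127 and 201 RPKM in the stabilised, knockout-labelled and wild-type groups, so this gene carried much of the difference between the sums. SWEET11 stood at 113, 81.4 and 74.6 RPKM in stabilised and 145, 111 and 124 RPKM in knockout-labelled libraries, against 223, 181 and 199 RPKM in the wild type. The companion cell marker SUC2 gave -0.21 (adjusted p = 0.234) and the phloem factor APL 0.04 (adjusted p = 0.826). The part of cell types in the phloem sum was not tested.

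EdgeR called 0 members in the other 6 marker lists. Before adjustment, a p under 0.05 was found for 1 of 4 mesophyll genes, which was lower, and for 2 of 8 trichome and stomatal lineage genes, which were higher. It was found for 0 of 5 flower, 1 root, 6 xylem and 4 dividing cell genes. DESeq2 called 1 lower mesophyll gene and no other. The stomatal peptide gene EPF2 had 0.106 to 0.606 RPKM in the lines, against 0.0252 to 0.149 RPKM in the wild type (log2 1.73, SE 0.50, adjusted p = 0.0923), the cell cycle kinase gene CDKB2;1 gave log2 0.73, adjusted p = 0.468, and the root marker PYK10 (listed as BGLU23) gave log2 -0.27, adjusted p = 0.74. The flower marker PI had 0.605 to 8.44 RPKM in the lines, against 0.336 to 0.588 RPKM in the wild type (log2 1.70, SE 0.83, adjusted p = 0.293), and the xylem factor VND7 (listed as NAC030) gave log2 -0.26, adjusted p = 0.836, with 1.10 in the stabilised and -1.63 in the knockout-labelled line. The sums of flower markers were 4.29 to 31.7 RPKM in the lines and 4.31 to 6.41 RPKM in the wild type, and those of xylem markers 2.52 to 16.7 RPKM and 4.11 to 9.63 RPKM.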

How the data were processed

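RNA from leaves of 9-week-old plants, extracted with the RNeasy plant kit and made into libraries with a NEB Next Ultra kit per the labels' protocols, was sequenced in 9 libraries, 3 per group. The authors deposited 1 table with raw counts of total and unique exon reads, of gene and of intron reads, and RPKM values (exon reads per kilobase and library size), from paired and trimmed reads per the file headers. The submitters' processing notes name the build TAIR10. No aligner, counting tool or strand setting is given in the sources used here. Total exon reads of each library (28585976 to 45346301) were used as counts, a depth at which low genes remain the least precise.

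From the counts, genes were filtered with filterByExpr (minimum count 10), which kept 19409 of 32833 genes. TMM factors scaled the libraries, and the quasi-likelihood functions of edgeR 4.0.16 (R 4.3.3) fitted a mean per group and tested the average of the line means minus the wild-type mean. P-values were adjusted by Benjamini-Hochberg and called at 0.05; an SE is the size of the log2 fold change over the root of the F statistic. Alternatives were RLE scaling, library totals, no filter, unique reads, 1 mean for both lines, the replicate number as block, limma 3.58.1 (voom), DESeq2 1.42.0 and leaving out each library; 2 sets of libraries were left out as alternatives chosen after seeing the data. Upstream sequences, gene positions and annotated products were taken from RefSeq's TAIR10.1 by locus identifier, which matched 32548 of 32833 genes.

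The comparison, the members and the gene lists were chosen with earlier results of these data known. Named genes are IAA26, the 12 largest rises and falls among genes moved the same way with a mean of at least 1 RPKM, the 4 largest differences between the lines among genes called in both comparisons, and up to 3 called members with the smallest p per list, or 1 where none was called. Other list members (among them CCA1, RVE8, LNK3, PRR3, PRR7, ELF4, GI, TOC1, LUX, BBX19, BBX29, COR15A, RD29A, COR413PM1, GOLS3, KIN2, GWD1, SEX4, DPE2, PHS1, GBSS1, AT1G47400, AT1G47395, AT2G30766, AP3, SUC2 and APL) were named after their values were seen, to spell out counts.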

Additional observations from a re-analysis of the deposited data

Results flagged for a closer look

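Single libraries stood far from the other 5 of the lines in 6 of 70 sets of values examined. The rule used flags by chance about 1 in 20 sets whose values come from 1 normal population. These sets pool both lines, so that rate need not hold here. Wild-type libraries were not screened in this way. In knockout-labelled 3, AT1G10770 stood at 5.27 RPKM and the flower marker PI at 8.44 RPKM. In stabilised 1, CYP71A13 stood at 3.12 RPKM, FRK1 (listed as SIRK) at 1.27 RPKM and ALD1 at 0.332 RPKM. In knockout-labelled 1, WRKY45 stood at 6.82 RPKM.

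The direct comparison of the lines in edgeR called 24 of the named genes; each difference is the log2 level in the stabilised minus that in the knockout-labelled line. Among clock genes it was 3.09 for FKF1 (ADO3), 2.18 for PRR5 (APRR5), -1.72 for LHY, -0.84 for LNK2 and -0.41 for LNK4. Among B-box genes it was -1.52 for BBX3 (COL2) and -0.87 for BBX2 (COL1). Cold and lipid genes gave 0.90 for CBF3 (DREB1A), 1.70 for CBF1 (DREB1B), 2.18 for COR15B, 2.59 for AT4G30650 and 1.58 for ADS2. The chaperone genes gave 1.25 for DJC76 and 1.79 for AT1G56300, and the starch enzymes 0.60 for PWD (GWD3) and 0.60 for PHS2. The iron regulator BHLH38 (ORG2) gave 4.01, AT1G69890 gave 3.00 and AT5G62720 gave 2.64. The remaining differences were -1.87 for AKR4C9, 0.68 for UGT74C1, -0.37 for AFB3, -1.25 for NAP (NAC029) and 2.73 for VND7 (NAC030).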

How the results depend on the processing

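Against 1004 genes called and 891 moved the same way, a single mean for both lines gave 260 and 260, all 260 among the 891, and DESeq2 gave 2359 and 1610, of which 890 were among the 891. RLE scaling, library totals, no filter, unique reads and limma-voom gave 1004, 692, 876, 1014 and 966 called genes. Leaving out 1 library gave 359 to 1596 called and 352 to 1164 moved the same way. Calling in each line separately left 198, and leaving out the 3 libraries numbered 2 left 0 and 0 (2565 at an unadjusted p under 0.05; DESeq2 was not run on that set). Same-numbered libraries deviated from their groups with correlations of -0.439 to 0.516, so the numbers were not taken to pair them, although the 3 libraries numbered 2 share a low intron share. With the replicate block 702 genes were called and 589 moved the same way, and calls were 5 rises for cold, 5 falls for iron, 6 falls for dawn, 5 rises for day and evening, and 5 rises and 1 fall for starch genes. The chloroplast difference lay between -0.0688 and -0.0537 percentage points without 1 library. Of 70 named genes, the root marker PYK10 (BGLU23) and VND7 (NAC030), neither called, changed sign: PYK10 ranged from -0.57 to 0.16 and VND7 from -0.67 to 0.43 without 1 library, and VND7 was 0.27 with a single mean for both lines. The causes were not tested. Depth limits genes under about 1 RPKM, such as CBF1 and NHL10 in their lower libraries, where a few reads carry the level.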
